A study of Drosophila melanogaster with 6 samples.

Results

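The Notch pathway was followed here through 39 genes, chosen as a list of its receptor, ligands, ligand-processing and receptor-processing enzymes, nuclear factors and target genes. They were looked up by symbol among the 23932 features of a count table from sorted T4/T5 neurons, and all 39 were found and passed the filter on low counts that left 9932 features for testing. T4 and T5 neurons are the motion-detecting cells of the fly visual system, and Drgx encodes a paired-like homeodomain transcription factor made in them. The tested animals carried UAS-DRGX-IR, a hairpin construct that knocks down Drgx by RNA interference, and the control animals carried UAS-cherry-IR, a hairpin against cherry, a gene for a fluorescent protein. Both kinds of animal also carried UAS-CD8-GFP, a membrane-bound green fluorescent protein, and the R23G12-Gal4 driver that switched both transgenes on. Brains were taken from climbing third-instar larvae grown at 25 °C, were dissociated, and GFP-positive cells were sorted. There were 3 libraries of each group. The labels give neither the number of brains in a library nor which other cells the driver marks. They also do not say whether the 3 libraries of a group are separate animals, crosses or days. The p-values below set the difference between groups against the spread between libraries, which may be partly technical.

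Notch is a receptor that is cleaved when a ligand on a neighbouring cell pulls on it. The freed intracellular part enters the nucleus, binds the DNA-binding protein Su(H) and the coactivator mam, and switches on target genes, chiefly the bHLH repressors and the Bearded family proteins of the Enhancer of split complex, E(spl). In the fly optic lobe the pathway acts in the divisions that make neurons, where one daughter cell has active Notch and the other does not, and Notch activity separates T4 from T5 fate.

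The libraries held 29587960 to 44054609 counts. Drgx itself (FBgn0085369, chromosome 2L, 3662745 to 3692114, assembly BDGP6.54) had 729, 729 and 663 CPM (counts scaled to a common library size with TMM factors) in knockdown neurons, against 2110, 2156 and 2160 CPM in control neurons. Its level in the knockdown was 33.0% of the control mean, with a log2 fold change of -1.60 (SE 0.0512, edgeR adjusted p = 7.29e-08). Of 5 general neuronal markers, nSyb, brp and Syt1 were lower in the knockdown (log2 fold changes -0.48, -0.78 and -0.46), fne was higher (1.23), and elav was not called (-0.02). The call of Syt1 was lost without control replicate 2 (edgeR adjusted p = 0.0535). The 9 T4/T5 markers summed to 3337 to 3503 CPM in the knockdown and 4995 to 5284 CPM in the control. Among them 4 fell, Sox102F, which averaged 277 CPM in the knockdown and 1150 CPM in the control (log2 fold change -2.05), dac (-0.88), SoxN (-0.60) and bi (-0.44). The other 5 were not called: acj6 (log2 fold change 0.22) and fd59A (0.99), TfAP-2 (-0.04), grn (-0.07) and ato (-0.29). Markers of glia summed to 814 to 881 CPM in the knockdown and 601 to 677 CPM in the control, with 2 of 8 called, both higher: nrv2 (log2 fold change 0.38) and Gs2 (0.75). The call of Gs2 was lost without knockdown replicate 1, control replicate 1 or control replicate 3. Most of both sums was nrv2 alone, which averaged 600 CPM in the knockdown and 460 CPM in the control. The defining glial factor, repo, averaged 9.82 CPM in the knockdown and 9.74 CPM in the control, the smallest change of the 8. The median log2 fold change of the 8 was 0.46. Of them, 6 had an unadjusted edgeR p under 0.05, beside 1630 of all 9932 features. For 5 (62.5%) the groups did not overlap, beside 23.3% of all features. The share called was 25.0%, beside 6.21% of all features. The blood cell markers He, srp and NimC1 and the photoreceptor opsins ninaE and Rh6 were at 0 counts in every library, and the sum of the blood cell list, all of it Ppn in the knockdown libraries, was 2.76 to 3.87 CPM in the knockdown and 0.0312 to 1.06 CPM in the control. Knockdown replicate 2 stood apart from the other libraries on the second principal component and had 325 tested features at 0 counts, against 118 to 171 in the other libraries.

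Of the 39 Notch genes, 5 changed. The ligand gene Ser and the Notch inhibitor numb were higher in the knockdown. The ubiquitin ligase gene neur, the coactivator gene mam and the Bearded family gene E(spl)m6-BFM were lower. The receptor gene N, the second ligand gene Dl, Su(H), all 5 proteolysis genes and all 8 bHLH target genes did not pass the test. The threshold was a Benjamini-Hochberg adjusted p under 0.05 over all 9932 features in edgeR's quasi-likelihood test. By that rule 12.8% of the Notch genes were called, beside 6.21% of all tested features. In one direction, 2 Notch genes (5.13%) were higher, beside 2.10% of all features, and 3 (7.69%) were lower, beside 4.11%. The knockdown and control values did not overlap for 12 of the 39 (30.8%), beside 23.3% of all features. These shares were not compared by a test, and the list was drawn up with earlier results of these data known. The median log2 fold change of the list was -0.05, beside 0.00 for all features, and the median size of change was 0.15, beside 0.21.

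**Figure D1:**
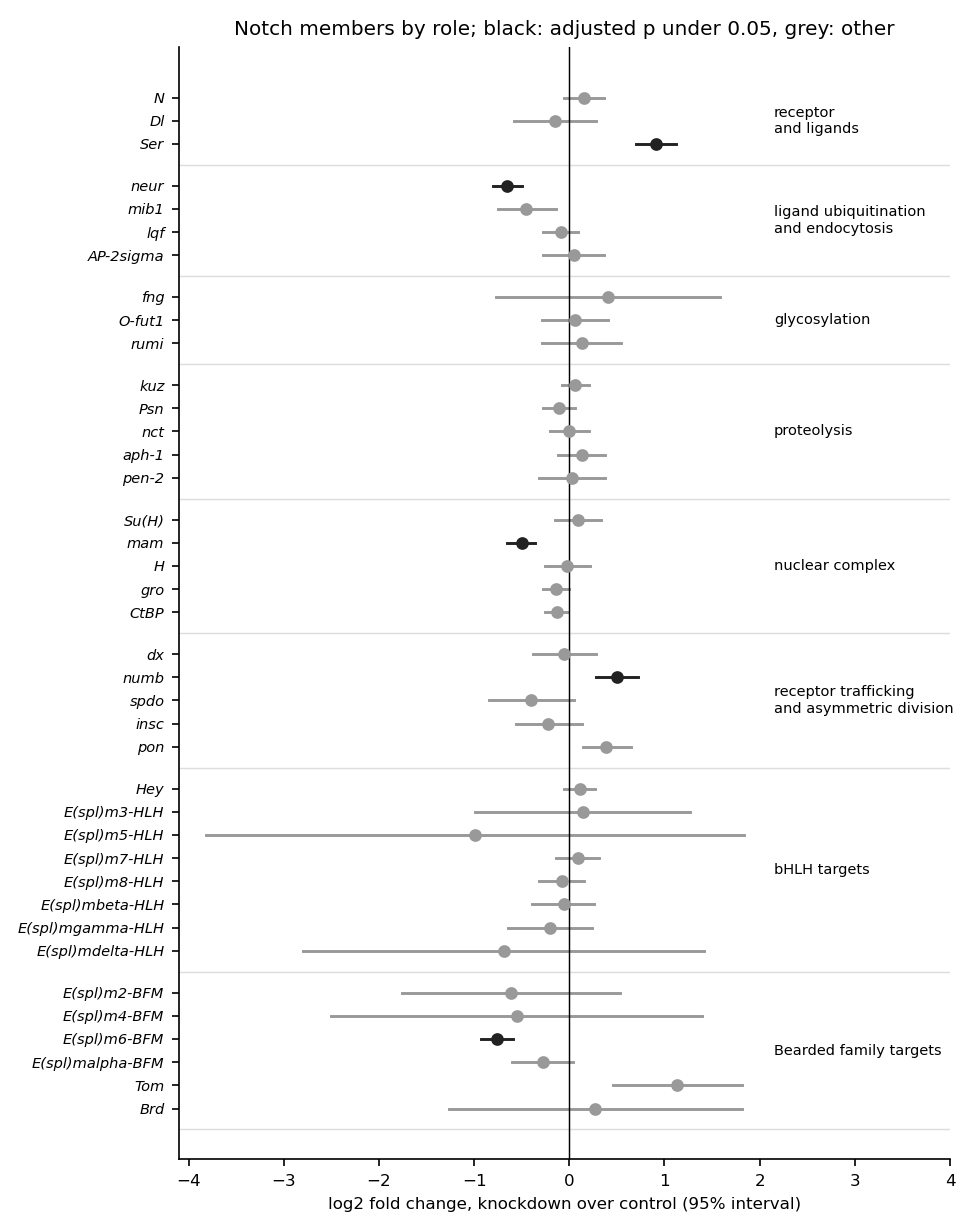
Log2 fold change of each of the 39 Notch genes, knockdown over control, with 95% intervals, grouped by role. Ser and numb lie above 0 and neur, mam and E(spl)m6-BFM below it, and the intervals of the genes under 5 CPM are the widest.

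The receptor and its ligands come first in the pathway. Ser (FBgn0004197, chromosome 3R, 27172090 to 27194267), one of the transmembrane ligands of Notch, had 209, 211 and 230.3 CPM in knockdown neurons, against 126, 101 and 119 CPM in control neurons. Every knockdown library lay above every control library. The means were 217 ± 11.9 CPM in the knockdown and 115 ± 12.7 CPM in the control (SD, n = 3 each), a ratio of 1.88 and a log2 fold change of 0.91 (SE 0.0942, edgeR adjusted p = 2.34e-04). The other ligand gene, Dl, had 18.6, 25.3 and 31.3 CPM in the knockdown, against 30.4, 25.6 and 27.5 CPM in the control. The groups overlapped, and the interval of the log2 fold change ran from -0.58 to 0.28. N, the receptor gene, had 128, 141 and 139.5 CPM in the knockdown, against 112, 120.2 and 135 CPM in the control. These values overlapped too, with an interval from -0.05 to 0.36 on the log2 scale.

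Ser was the more abundant ligand transcript in both groups, at 37.2 CPM per kilobase of exon in the knockdown and 19.8 in the control, while Dl stood at 4.75 in the knockdown and 5.28 in the control. Ser made up 91.1%, 88.3% and 86.9% of the ligand transcripts (CPM per kilobase, Dl plus Ser) in the knockdown libraries, against 78.9%, 78.1% and 79.6% in the control libraries. The share was higher in each knockdown library than in any control library. The log2 ratio of Ser to Dl (CPM) averaged 3.14 ± 0.32 in the knockdown and 2.05 ± 0.07 in the control (SD, n = 3 each). An exact two-sided permutation test on that ratio gave p = 0.1, the smallest that 3 against 3 libraries allow, and the ratio was chosen after its values were seen.

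Ligands must be ubiquitinated and pulled in by endocytosis to activate Notch, and neur and mib1 encode the E3 ubiquitin ligases that act on them. For neur (FBgn0002932, chromosome 3R, 9020348 to 9039471), the values were 136, 142.5 and 139 CPM in the knockdown, against 209.6, 226 and 219 CPM in the control. All knockdown libraries were lower than all control libraries, at 63.8% of the control mean. The log2 fold change was -0.65 (SE 0.0679, edgeR adjusted p = 2.53e-04). An antisense gene, asRNA:CR31429, shares 1673 bases of exon with neur on the opposite strand. It had 0 counts in all 6 libraries. The strand setting of the counting is unknown, so reads from this pair could not be separated by strand here.

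The second ligase gene, mib1, had 70.9, 50.6 and 52.7 CPM in the knockdown, against 84.8, 75.5 and 76.9 CPM in the control. The groups did not overlap, but the log2 fold change of -0.45 (SE 0.138) did not pass the test (edgeR adjusted p = 0.110). It passed in DESeq2 (adjusted p = 0.0267) and in edgeR without knockdown replicate 1 (adjusted p = 0.0173). AP-2sigma, the small subunit of the clathrin adaptor AP-2 and the most abundant gene of this role per kilobase, had 48.7, 63.9 and 46.3 CPM in the knockdown, against 45.4, 54.0 and 54.3 CPM in the control. The groups overlapped, as they did for lqf, which encodes the endocytic adaptor epsin (interval of the log2 fold change -0.28 to 0.09).

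The genes that modify and cleave the receptor showed no call. Among the 3 glycosylation genes, O-fut1, which adds the O-fucose on which the glycosyltransferase fng builds, had 38.2, 50.1 and 34.7 CPM in the knockdown, against 35.3, 41.7 and 41.0 CPM in the control. The groups overlapped for O-fut1, for rumi, an O-glucosyltransferase (interval -0.29 to 0.54), and for fng, which averaged 4.31 CPM in the knockdown and 3.24 CPM in the control. Of these 3 genes, 0 were called by edgeR, DESeq2 or limma-voom and 0 had an unadjusted edgeR p under 0.05. Of all 9932 tested features, edgeR called 617, and 1630 had an unadjusted p under 0.05. A list of 3 genes is too short to tell 0 from such shares.

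Cleavage uses the metalloprotease kuz and then gamma-secretase, whose subunits are Psn, nct, aph-1 and pen-2. The most abundant of them per kilobase, aph-1, had 65.2, 83.5 and 70.8 CPM in the knockdown, against 64.9, 66.4 and 68.6 CPM in the control. The 5 genes together summed to 238 ± 12.3 CPM per kilobase in the knockdown and 234 ± 3.87 in the control (SD, n = 3 each), and the groups overlapped. The intervals of single genes ran from -0.32 (pen-2) to 0.38 (aph-1 and pen-2) on the log2 scale. Psn alone among these 5 had groups that did not overlap, with means of 114 ± 3.38 CPM in the knockdown and 123 ± 3.56 CPM in the control (SD, n = 3 each). For these 5 genes too, 0 were called by edgeR, DESeq2 or limma-voom and 0 had an unadjusted edgeR p under 0.05. Beside the 617 and 1630 of all 9932 features, 5 genes are again too few to tell 0 from the general share.

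**Figure D2:**
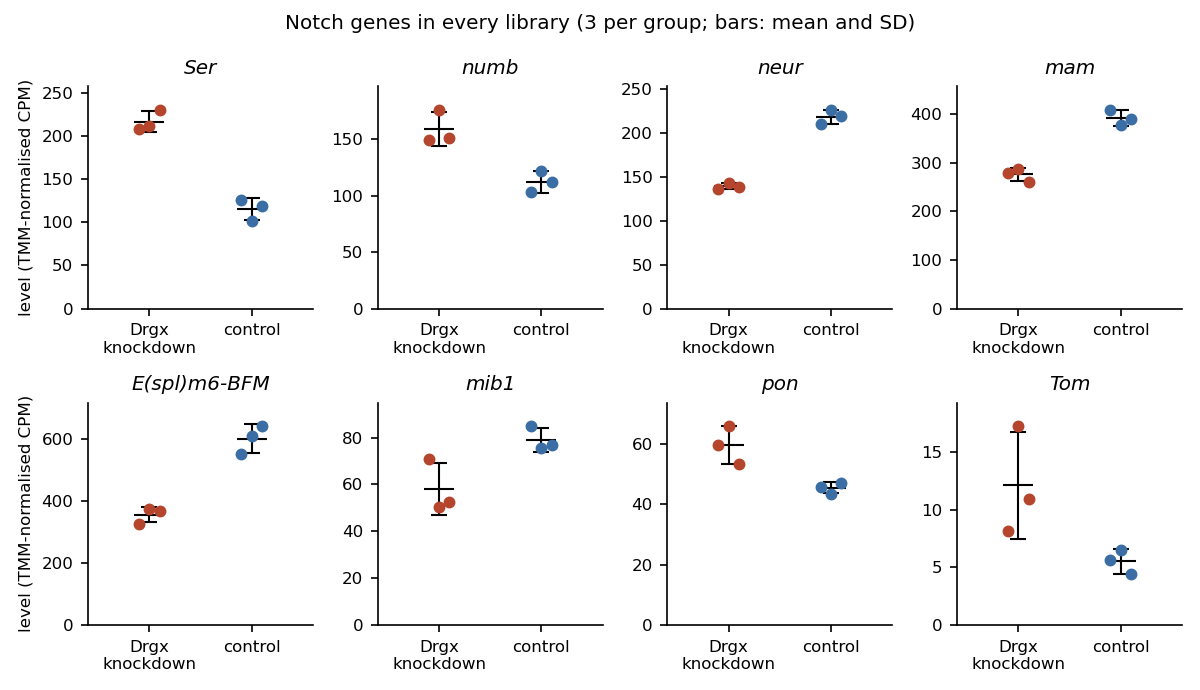
Level (CPM, axis from 0) of 8 Notch genes in each of the 6 libraries, knockdown left of control in each panel, with the mean and SD as bars. Knockdown points lie above control points for Ser, numb, pon and Tom and below them for neur, mam, E(spl)m6-BFM and mib1, with no overlap in any of the 8 panels.

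In the nucleus the cleaved receptor joins Su(H) and mam. The coactivator gene mam (FBgn0002643, chromosome 2R, 13991203 to 14060356) had 280.1, 288 and 261.5 CPM in the knockdown, against 409, 377 and 389.9 CPM in the control. The knockdown values were lower throughout, with means of 277 ± 13.7 CPM in the knockdown and 392 ± 16.1 CPM in the control (SD, n = 3 each). The log2 fold change was -0.50 (SE 0.0648, edgeR adjusted p = 9.40e-04).

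Its DNA-binding partner Su(H) had 64.3, 77.5 and 78.4 CPM in the knockdown, against 65.6, 69.8 and 71.7 CPM in the control, and the groups overlapped (interval -0.15 to 0.33). Without active Notch, Su(H) is held in a repressor complex by H, which brings in the corepressors gro and CtBP. CtBP, the most abundant nuclear member at 148 CPM per kilobase, had 885, 936 and 921 CPM in the knockdown, against 941, 1019 and 1040 CPM in the control. Its groups did not overlap, and its log2 fold change of -0.13 (edgeR adjusted p = 0.264) did not pass. For gro the means were 361 ± 19.7 CPM in the knockdown and 397 ± 11.4 CPM in the control (SD, n = 3 each), again without overlap and without a call (edgeR adjusted p = 0.318). H averaged 154 ± 17.7 CPM in the knockdown and 156 ± 17.4 CPM in the control (SD, n = 3 each).

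Another role is to give Notch activity to one daughter of a division and not to its sister. The protein numb is passed to one daughter, where it blocks Notch by acting on endocytosis of its partner spdo, and pon helps to place numb. The gene numb (FBgn0002973, chromosome 2L, 9437469 to 9464184) had 149, 176 and 151 CPM in the knockdown, against 103, 122 and 112 CPM in the control. The groups did not overlap, and the log2 fold change was 0.50 (SE 0.0967, edgeR adjusted p = 0.0121). This call was lost without control replicate 1 (log2 fold change 0.44, edgeR adjusted p = 0.0548) and without control replicate 3 (0.50, edgeR adjusted p = 0.0606).

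The adaptor gene pon had 59.8, 65.9 and 53.5 CPM in the knockdown, against 46.0, 43.6 and 47.1 CPM in the control. Every knockdown value was above every control value, but its log2 fold change of 0.39 passed in DESeq2 (adjusted p = 0.0149) and not in edgeR (adjusted p = 0.084). For spdo the means were 24.1 ± 5.47 CPM in the knockdown and 31.8 ± 6.26 CPM in the control (SD, n = 3 each), with overlap. The groups also overlapped for insc, which orients the division (interval -0.56 to 0.13), and for dx, a ubiquitin ligase that binds the receptor (interval -0.38 to 0.28).

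The 8 bHLH target genes gave no call. They encode transcriptional repressors, and 7 of them are E(spl) genes. Hey, a target of Notch in newborn neurons, had 157, 146.5 and 153.5 CPM in the knockdown, against 139, 140.4 and 144 CPM in the control. Its groups did not overlap, by a small margin, and the log2 fold change was 0.11 (interval -0.05 to 0.27, edgeR adjusted p = 0.514). E(spl)m7-HLH, the most abundant bHLH target per kilobase, had 86.5, 87.7 and 96.4 CPM in the knockdown, against 80.0, 80.8 and 94.3 CPM in the control. Those values overlapped, with an interval from -0.14 to 0.31 on the log2 scale. The 8 genes summed to 277 ± 5.72 CPM per kilobase in the knockdown and 272 ± 14.1 in the control (SD, n = 3 each), again with overlap. Of the 8 genes, 0 had an unadjusted edgeR p under 0.05, and 0 were called by edgeR, DESeq2 or limma-voom. Over all 9932 tested features, 1630 had an unadjusted edgeR p under 0.05 and 617 were called by edgeR. With 8 genes, 0 cannot be told from these shares.

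The bHLH genes lay far apart in level. E(spl)m7-HLH and Hey stood at 89.2 and 87.0 CPM per kilobase over all 6 libraries, followed by E(spl)m8-HLH at 52.1, E(spl)mbeta-HLH at 22.2 and E(spl)mgamma-HLH at 21.7. E(spl)m3-HLH stood at 1.38, E(spl)m5-HLH at 0.521 and E(spl)mdelta-HLH at 0.443 CPM per kilobase. The last of these rest on few reads. E(spl)m5-HLH had 2, 0 and 32 counts in the knockdown, against 16, 22 and 29 counts in the control, and E(spl)mdelta-HLH had 2, 12 and 21 counts in the knockdown, against 8, 35 and 21 counts in the control. The intervals of the log2 fold change were wide, from -3.82 to 1.84 for E(spl)m5-HLH and from -2.80 to 1.42 for E(spl)mdelta-HLH.

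The Bearded family genes encode small proteins that bind neur and block its action on ligands, and many are themselves Notch targets. E(spl)m6-BFM (FBgn0002632, chromosome 3R, 26032911 to 26034047) had 328, 374 and 367 CPM in the knockdown, against 551.5, 612 and 642 CPM in the control. All knockdown libraries were lower than all control libraries. Means were 356 ± 24.9 CPM in the knockdown and 602 ± 46.0 CPM in the control (SD, n = 3 each), and the knockdown reached 59.2% of the control. The log2 fold change was -0.76 (SE 0.0760, edgeR adjusted p = 1.91e-04). At 421 CPM per kilobase over all libraries it was the most abundant of the 39 Notch genes and stood at percentile 99.1 of the tested features.

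Without E(spl)m6-BFM, the Bearded family summed to 77.6 ± 12.7 CPM per kilobase in the knockdown and 84.3 ± 9.31 in the control (SD, n = 3 each), and the groups overlapped. E(spl)malpha-BFM averaged 39.5 ± 5.36 CPM in the knockdown and 48.1 ± 6.22 CPM in the control (SD, n = 3 each), with an interval from -0.60 to 0.04 on the log2 scale. E(spl)m2-BFM, E(spl)m4-BFM and Brd averaged under 5 CPM in both groups and overlapped. Tom, which lies next to Brd on chromosome 3L, had 8.18, 17.2 and 10.9 CPM in the knockdown, against 5.59, 6.53 and 4.38 CPM in the control. All knockdown values were above all control values, and the log2 fold change of 1.13 (SE 0.301) did not pass (edgeR adjusted p = 0.0596). It passed in DESeq2 (adjusted p = 0.0105), without knockdown replicate 1 (edgeR adjusted p = 0.036), with no filter on low counts (0.0441) and with a filter of at least 10 counts in every library (edgeR adjusted p = 0.0352).

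**Figure D3:**
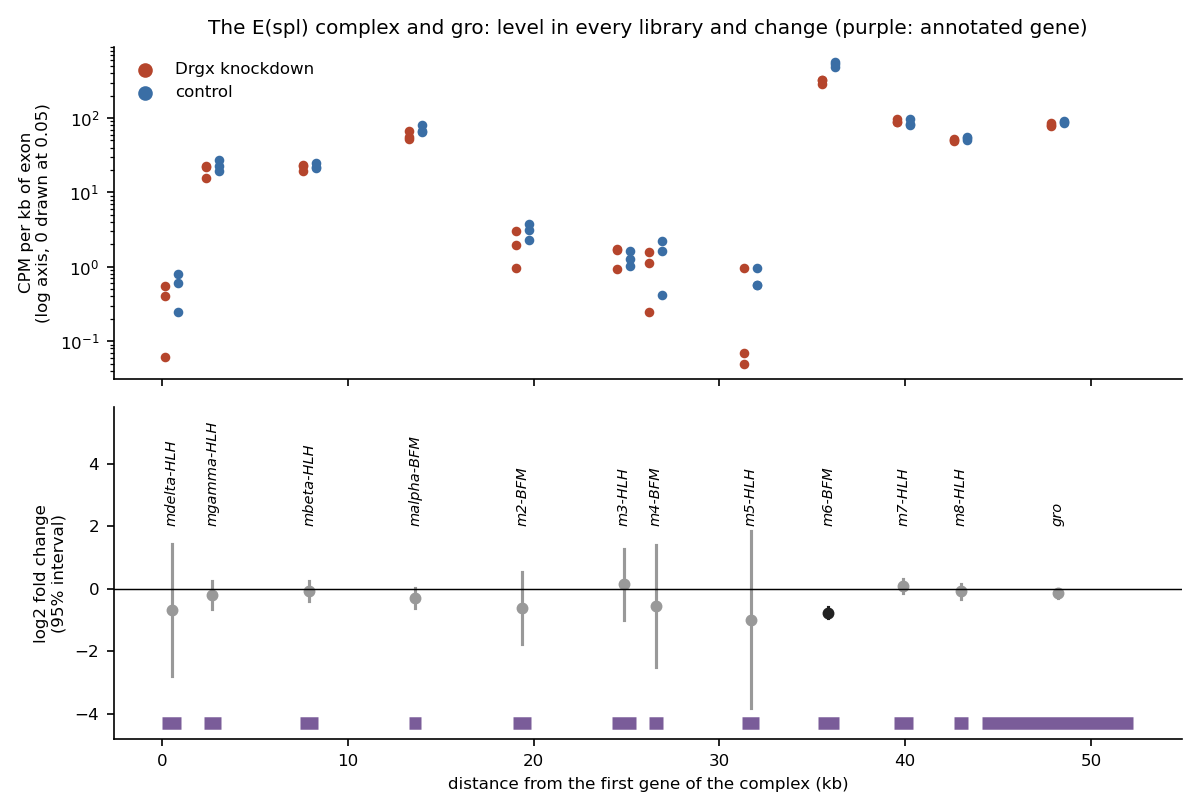
Top, level of the 12 members of the E(spl) complex in each library (CPM per kilobase, log axis) by distance along the complex, with knockdown points left of control points. Bottom, log2 fold change, knockdown over control, with 95% intervals, above bars that mark the genes. E(spl)m6-BFM is the highest of them and lies wholly below 0, while the bHLH genes beside it overlap between groups.

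The E(spl) complex set these target genes side by side. It spans 52.3 kb of chromosome 3R, from 25997621 to 26049911, and holds 12 of the 39 members, 11 E(spl) genes and gro. Of these 12, E(spl)m6-BFM was the 1 called, beside 6.21% of all tested features. A list of 12 genes is too short to tell 1 from that share. E(spl)m6-BFM lies between E(spl)m5-HLH and E(spl)m7-HLH. The log2 ratio of E(spl)m6-BFM to E(spl)m7-HLH (CPM) was 1.92, 2.09 and 1.93 in the knockdown, against 2.79, 2.92 and 2.77 in the control. The difference of -0.84 was larger than the spread within either group. The exact two-sided permutation p was 0.1, again the smallest possible, and the ratio was chosen after its values were seen. Of the 3 ratios computed, the other was neur to mib1, which averaged 1.28 ± 0.30 in the knockdown and 1.47 ± 0.14 in the control (SD, n = 3 each, exact two-sided permutation p = 0.5). After Benjamini-Hochberg adjustment over the 3 ratios, the exact permutation p was 0.15 for Ser to Dl and for E(spl)m6-BFM to E(spl)m7-HLH. E(spl)m1, which encodes a protease inhibitor and not a bHLH or Bearded protein, had 0 counts in every library. Of its 1705 bases of exon, 972 are shared on the same strand with lncRNA:CR45040, which also had 0 counts. The counting program is unknown, so reads from the shared bases may have been assigned to neither gene.

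**Figure D4:**
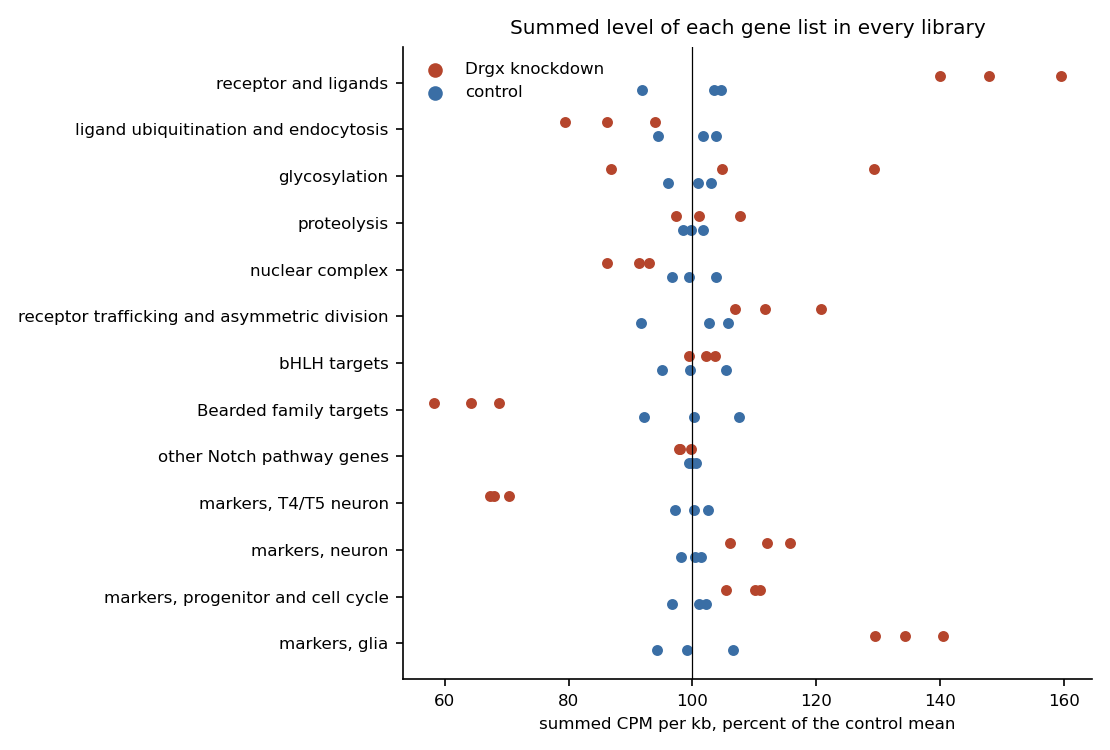
Summed level of gene lists in each library, as a percentage of the control mean of CPM per kilobase, knockdown above control in each row. Drawn are each role group, a further list of pathway genes, and the T4/T5, neuron, progenitor and glia markers. The blood cell and photoreceptor lists are not drawn. The Bearded family lies below its controls and the receptor and ligand group above, while the bHLH targets and proteolysis genes overlap around 100.

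Summed by role, the receptor and ligand genes reached 55.3 ± 3.65 CPM per kilobase in the knockdown and 37.1 ± 2.64 in the control, and the Bearded family reached 391 ± 31.9 in the knockdown and 614 ± 46.8 in the control (SD, n = 3 each). Ser makes up most of the first sum and E(spl)m6-BFM most of the second. The nuclear genes summed to 305 ± 11.9 in the knockdown and 338 ± 12.1 in the control, with no overlap. Nor was there overlap for the ligand ubiquitination and endocytosis genes, at 137 to 162 CPM per kilobase in the knockdown and 163 to 179 in the control, or for the receptor trafficking and asymmetric division genes, at 77.6 to 87.7 in the knockdown and 66.6 to 76.7 in the control. The nuclear difference was spread over several genes. CtBP averaged 142 CPM per kilobase in the knockdown and 155 in the control. The gene mam averaged 31.2 in the knockdown and 44.2 in the control, and gro 81.1 in the knockdown and 89.1 in the control. Su(H) was slightly higher in the knockdown and H slightly lower. In the other role groups, single genes carried most of the difference. The gene neur averaged 32.3 CPM per kilobase in the knockdown and 50.7 in the control, mib1 and lqf were also lower, and AP-2sigma was slightly higher. The gene numb averaged 32.3 in the knockdown and 22.8 in the control. The mean of pon was also higher in the knockdown, while those of spdo, insc and dx were lower. Sorted cells are measured in bulk, so fewer cells of a type and less RNA per cell cannot be told apart. The higher glial and lower T4/T5 marker sums given above separate the libraries in the same way as Ser, neur, mam, numb and E(spl)m6-BFM do, and their part in these 5 changes was not tested. Marker genes of progenitors and cell division summed to 1114 to 1235 CPM in the knockdown and 1129 to 1231 CPM in the control. Most of both sums was pros alone, which averaged 860 CPM in the knockdown and 920 CPM in the control. Of the 9 tested markers of this list, edgeR called 0 and 3 had an unadjusted p under 0.05, beside 617 and 1630 of all 9932 features. Summed per kilobase, these markers stood at 158 to 166 in the knockdown and 145 to 153 in the control, which did not overlap.

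Precision followed level. The 7 Notch genes under 5 CPM in both groups had standard errors of 0.503 to 1.26 on the log2 scale, and the other 32 had 0.0542 to 0.301. Among the 34 genes not called, the 95% interval of 26 lay within a 2-fold change in either direction, and for the remaining 8 a change of 2-fold or more lay inside it in at least one direction. These 8 were Tom and the 7 genes under 5 CPM. The 4 genes not called with an unadjusted p under 0.05 were mib1, CtBP, pon and Tom. With the called genes, 9 of the 39 had an unadjusted edgeR p under 0.05, beside 1630 of all 9932 features. Besides neur, exons of lqf (777 bases), pen-2 (565 bases), nct (374 bases), insc (359 bases) and gro (181 bases) overlap those of a neighbouring gene, and mib1, Psn, rumi, kuz and fng share 22 to 48 bases, so the counts of these genes are less certain.

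**Figure D5:**
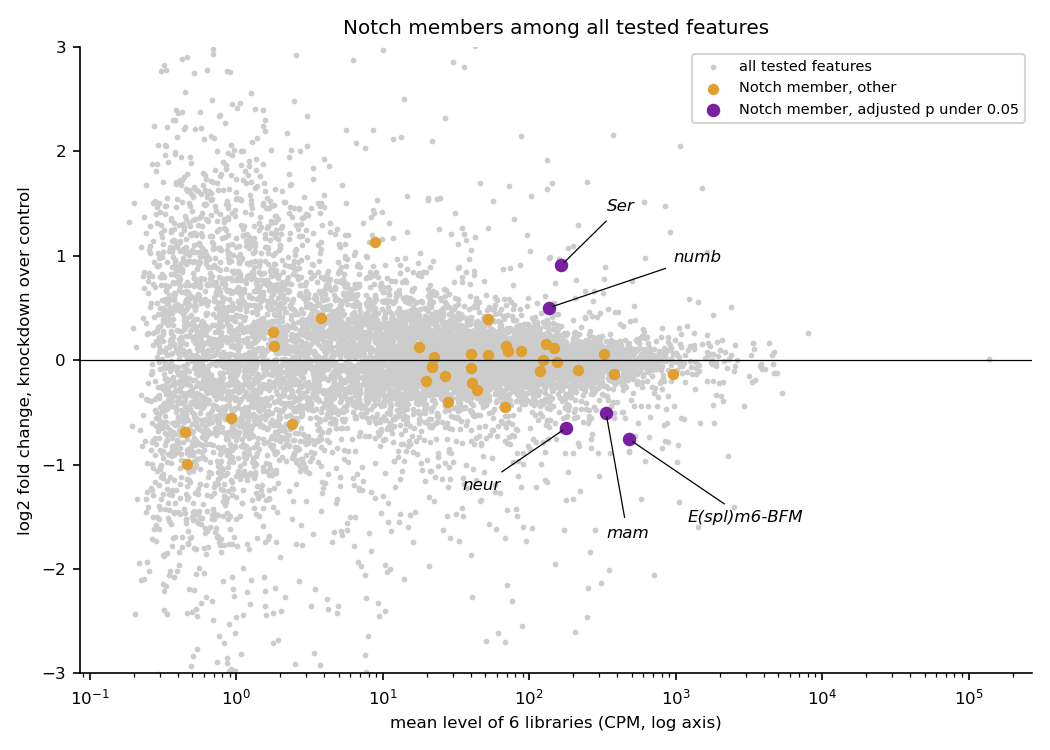
Log2 fold change, knockdown over control, against mean level over the 6 libraries (CPM, log axis) for all tested features, with the Notch genes in colour; 159 features beyond 3 on the log2 scale are not drawn. The 5 called Notch genes are among the more abundant ones, and the change of each is smaller than 2-fold.

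A further list of 40 pathway genes outside the 39, among them sheddases, endocytic factors, glycosylation enzymes and chromatin cofactors, held 38 tested genes. Of these, 1 (2.63%) was called, beside 6.21% of all tested features. The called gene was bib, whose protein is an aquaporin-like membrane protein named big brain for its neurogenic mutant phenotype. The values of bib were 8.03, 8.14 and 10.1 CPM in the knockdown, against 19.7, 15.6 and 14.5 CPM in the control. No values overlapped, and the log2 fold change was -0.92 (SE 0.197, edgeR adjusted p = 0.0205). The call was lost without knockdown replicate 1 (edgeR adjusted p = 0.0796), knockdown replicate 2 (0.0605), control replicate 1 (0.0822) or control replicate 2 (0.0655). In the list 7 of the 38 tested genes had an unadjusted edgeR p under 0.05, beside 1630 of all 9932 features. For 9 the groups did not overlap (23.7%, beside 23.3% of all features), and the median log2 fold change was -0.03.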

How the data were processed

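The deposited table holds raw counts per gene for 6 libraries, made with SMART-Seq v4 per the labels' protocols. Per the submitters' processing notes the authors used STAR, DESeq2 and the build BDGP6. The counting program, its strand setting and the annotation are not given in the sources used here. Gene positions and exon lengths came from Ensembl release 115 (BDGP6.54), which matched 23851 of 23932 features.

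Counts were tested with edgeR 4.0.16 (R 4.3.3): filterByExpr at a minimum count of 10, TMM scaling, glmQLFit and glmQLFTest on group alone, and Benjamini-Hochberg adjustment over 9932 features. SEs are the log2 fold change over the square root of F. CPM per kilobase uses the union of annotated exons. DESeq2 1.42.0 and limma 3.58.1 were alternatives. In simulated data, 73% of 189 genes changed 4-fold were recovered, with 6 false calls among 9553 tested. Smaller changes, such as those of the called Notch genes, were not simulated, so their rate of recovery is unknown.

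The Notch genes, roles and marker lists were chosen with earlier results of these data known. Values per library are given for called genes, genes whose call differed under an alternative, N, Dl, Hey, Su(H) and the most abundant gene of each role. A floor of 3 counts is 0.069 to 0.102 CPM. Promoter sequences were not used here.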

Additional observations from a re-analysis of the deposited data

How the results depend on the processing

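Ser, neur, mam and E(spl)m6-BFM were called in all 13 alternatives, and no call was reversed by any of them. The number of Notch genes called was 5 under both other scalings, limma-voom and the replicate block, 6 with no filter or a stricter one, and 8 in DESeq2, which added mib1, pon and Tom. Leaving out single libraries gave 4 to 7. Without knockdown replicate 2, which stood apart, the same 5 genes were called. The other pathway list gave 4 in DESeq2, 0 in the fit with the replicate block (bib, adjusted p = 0.0551) and 0 to 1 with single libraries left out. All features called numbered 952 in DESeq2, 556 with the replicate block and 399 to 556 with single libraries left out, the lowest without control replicate 2. Deviations of same-numbered libraries of the 2 groups correlated at 0.0557, -0.0118 and -0.03. These values show no pairing by replicate number but cannot exclude it, and the labels do not say whether equal numbers mean a pair. Other scalings moved the median of all features by at most 0.0281 on the log2 scale. For the 7 Notch genes under 5 CPM the 95% intervals reached past 2-fold in at least one direction, and counts also differed widely within a group; whether depth sets that spread was not tested.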

Other observations

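Tom and Brd have another Bearded family neighbour on chromosome 3L, Ocho (14974848 to 14976040, BDGP6.54), picked here after its values were seen. Ocho had 46, 53 and 29 counts in the knockdown, against 17, 14 and 9 counts in the control. Every knockdown library was higher, and the log2 fold change of 1.83 (SE 0.701) did not pass the test (edgeR adjusted p = 0.212; unadjusted 0.0268).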
